A study of Mus musculus with 12 samples.

Results

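Mutations in a small set of genes cause human polycystic kidney or liver disease, and 10 of their mouse counterparts were followed here through cystic and control kidneys. The 10 genes were Pkd1, Pkd2, Pkhd1, Ganab, Prkcsh, Sec63, Dnajb11, Bicc1, Glis2 and Glis3, taken by symbol from a table of 35275 genes in which each symbol had 1 entry. Whole-kidney poly(A) RNA was sequenced from 12 C57BL/6J mice at 6 months of age, 4 in each of 3 groups. WT mice carried no engineered allele. RC/RC mice were homozygous for the hypomorphic Pkd1 R3277C knock-in, which alters the protein in every cell of the body and gives a slowly progressive polycystic kidney. RC/RC:Casp1KO mice carried the same homozygous Pkd1 allele and, in addition, a germline TALEN deletion in Casp1 that removes the codon of the active-site cysteine and a splice donor. Each group held 2 females and 2 males, but the columns of the table carry a group and a mouse number and no sex, so no value is given by sex. Mice are named by those numbers, with the prefix RC in the RC/RC group. The design asks which of these genes differed in RNA level between cystic and WT kidneys, and whether loss of Casp1 in cystic kidneys was accompanied by a difference.

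Polycystin-1 (Pkd1) and polycystin-2 (Pkd2) form a receptor-channel complex in the primary cilium of tubule cells, and fibrocystin (Pkhd1) is a large ciliary membrane protein whose loss causes recessive polycystic kidney disease. Polycystin-1 reaches the cilium only after it has been folded in the endoplasmic reticulum (ER), and several genes behind polycystic kidney or liver disease act there. Glucosidase II, made of a catalytic subunit (Ganab) and a regulatory subunit (Prkcsh), trims N-linked glycans, Sec63 assists the translocon and Dnajb11 is a co-chaperone of BiP. Bicc1 is an RNA-binding protein that regulates mRNAs in the tubule, and Glis2 and Glis3 are zinc-finger transcription factors found in the nucleus and at the cilium, whose loss gives nephronophthisis and cystic kidneys, respectively.

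All 10 genes were well measured. Counts per library summed to between 18019819 and 24869454, any member had between 844 and 10279 counts in any mouse, and all 10 passed the filter on low counts in every comparison. Levels are given as CPM, read counts scaled to each library's size with TMM factors, or as FPKM (CPM per kilobase of gene length) where genes are compared with each other. Within groups the mice were not evenly alike. The chi-square per degree of freedom between the counts of 2 mice was 17.7 for WT mice 2 and 3 and 16.4 for WT mice 4 and 6, against 89.8 to 127 for the other WT pairs. In RC/RC it was 37.2 for RC140 and RC143 and 67.6 to 128 for the other pairs. In RC/RC:Casp1KO it was 31.8 for mice 42 and 70, 15.7 for mouse 60 and the remaining mouse, and 67.1 to 93.4 for the other pairs. What these pairs share is not in the labels of the columns, and the tests took the 4 mice of a group as independent. In whole kidney, fewer cells of a type and less RNA per cell cannot be told apart. A fold change is called where the Benjamini-Hochberg adjusted p of edgeR's quasi-likelihood test over all genes tested was under 0.05, and each fold change is given with its standard error (SE).

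The knockout label was checked on Casp1 itself, the gene of the inflammatory protease caspase-1. The 4 WT kidneys had 26 to 43 Casp1 counts, the RC/RC kidneys 61 to 87 and the RC/RC:Casp1KO kidneys 10 to 23. Casp1 was higher in RC/RC than in WT (3.51 ± 0.705 against 1.51 ± 0.361 CPM, SD, n = 4, log2 fold change 1.21, SE 0.25, adjusted p = 0.0142) and lower in RC/RC:Casp1KO than in RC/RC (0.693 ± 0.278 CPM, log2 fold change -2.35, SE 0.32, adjusted p = 0.00514). Against WT the RC/RC:Casp1KO difference of -1.12 (log2, SE 0.35) was not called (adjusted p = 0.128), while DESeq2 called it (adjusted p = 0.0489). The counts cover the whole gene and not only the deleted stretch.

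Of the 10 genes, 1 was called in RC/RC against WT, 0 in RC/RC:Casp1KO against RC/RC and 3 in RC/RC:Casp1KO against WT. The called gene of the cystic kidneys was Glis2, which was higher in RC/RC, and the 3 of the double mutant were Pkd2, Pkhd1 and Glis2, all higher than in WT. Over all genes, 12.9% of 15243 tested were called in RC/RC against WT (9.76% higher and 3.18% lower), 11.6% of 15428 in RC/RC:Casp1KO against RC/RC (7.23% higher and 4.41% lower) and 2.03% of 15346 in RC/RC:Casp1KO against WT (1.13% higher and 0.893% lower). In the first comparison 1 of 10 was close to this background, and in the second 0 of 10 passed edgeR's quasi-likelihood test, where 4 of the 10 had an unadjusted p under 0.05, beside 31.7% of all genes tested, and the DESeq2 Wald test called 3, beside 17.3% of the 18320 genes to which it gave an adjusted p. Without overlap between the 4 mice of each group stood 3 of the 10 in RC/RC against WT, where 19.6% of all genes tested did so, 2 of 10 in RC/RC:Casp1KO against RC/RC, with 20.4% of all genes, and 6 of 10 in RC/RC:Casp1KO against WT, with 13.9% of all genes. The median log2 fold change of the 10 genes was -0.05, 0.17 and 0.03 in the 3 comparisons, beside -0.02, -0.03 and 0.01 over all genes tested. Each group of mice enters 2 of the 3 comparisons, so these are not independent of each other.

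**Figure D1:**
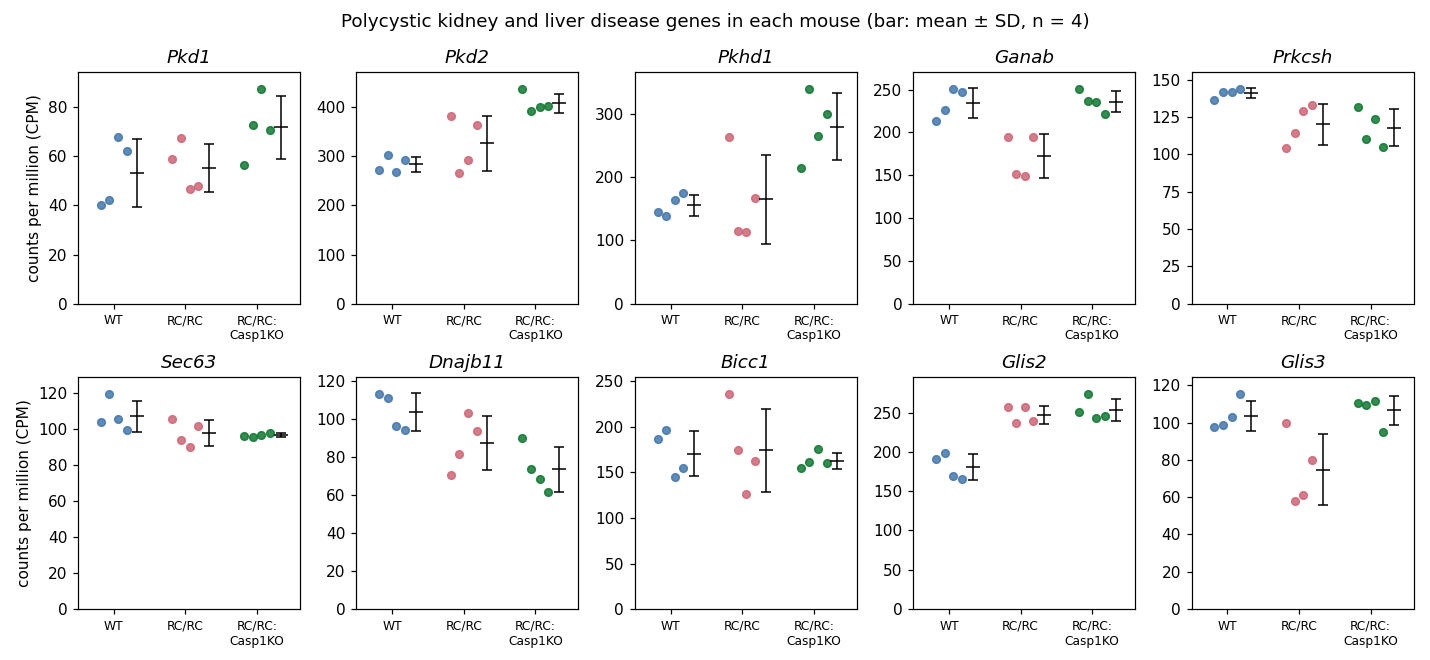
CPM (vertical axes, from 0) of the 10 genes in each of 12 kidneys, grouped on the horizontal axis as WT, RC/RC and RC/RC:Casp1KO. Points are mice and bars the mean ± SD of 4 mice. Glis2 stands higher in all 8 mutant kidneys than in the 4 WT kidneys, and Ganab lower in RC/RC than in both other groups.

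Pkd1 itself was low and variable in WT kidneys. WT mice 2 and 3 had 40.2 and 42.3 CPM, and WT mice 4 and 6 had 67.5 and 62.0 CPM. The 4 RC/RC kidneys lay inside this span, with 58.8 CPM in RC105, 67.4 in RC139, 46.4 in RC140 and 48.0 in RC143. The RC/RC:Casp1KO values were 56.3 CPM in mouse 42, 72.5 in mouse 60, 87.2 in mouse 70 and 70.5 in the remaining mouse. Pkd1 RNA in RC/RC against WT differed by less than the spread between mice (log2 fold change 0.06, SE 0.20, adjusted p = 0.878). RC/RC:Casp1KO kidneys had log2 fold changes of 0.37 (SE 0.16, adjusted p = 0.143) against RC/RC and 0.44 (SE 0.20, adjusted p = 0.234) against WT, neither called, and the groups overlapped in all 3 comparisons.

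Pkd1 is one of the longest transcripts in the table (14170 bases), and counts followed gene length differently between the libraries. The trend of counts on gene length, read at the length of Pkd1, was -0.33 and -0.28 (log2, relative to the mean library) in WT mice 2 and 3, 0.19 and 0.13 in WT mice 4 and 6, between -0.44 and 0.08 in RC/RC and between 0.13 and 0.43 in RC/RC:Casp1KO. With this trend removed, Pkd1 ranged from 50.5 to 59.2 CPM in WT, narrower than as counted, from 52.7 to 79.1 CPM in RC/RC, wider than as counted, and from 51.5 to 64.8 CPM in RC/RC:Casp1KO. The RC/RC:Casp1KO fold change against RC/RC then turned from 0.37 to -0.07 (log2, adjusted p = 0.797). The part of RNA quality, library preparation or cell makeup in this trend was not tested.

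Pkd1 shares its end with a neighbour. On chromosome 17 of GRCm38, the build whose coordinates the table matches, Pkd1 runs from 24549950 to 24596514 on the + strand, and its last 578 bases (24595937 to 24596514) overlap the end of Tsc2 on the - strand. Tsc2, the gene of tuberin and a tuberous sclerosis gene, also causes cystic kidneys. Tsc2 had 93.7 to 99.99 CPM in WT, 55.6 to 68.5 in RC/RC and 75.5 to 86.3 in RC/RC:Casp1KO. It was lower in RC/RC than in WT (log2 fold change -0.64, SE 0.10, adjusted p = 0.00399) and higher in RC/RC:Casp1KO than in RC/RC (0.39, SE 0.10, adjusted p = 0.0415). The second call ended with the length trend removed (0.25, adjusted p = 0.136), with library size alone, without a filter, by limma and in 6 of 8 fits that left out 1 mouse, and the first held in all of these. The Pkd1 to Tsc2 ratio of FPKM was 0.232 ± 0.0646 in WT, 0.380 ± 0.0935 in RC/RC and 0.368 ± 0.0570 in RC/RC:Casp1KO (SD, n = 4). The strand setting of the counting is not given in the sources used here, so reads from the shared bases could count to either gene.

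Pkd2 was many times more abundant per length than Pkd1 in every kidney. WT kidneys had 272, 302, 268 and 291 CPM of Pkd2, and RC/RC kidneys 383, 265, 292 and 364 CPM. Pkd2 reached 436, 392, 401 and 401 CPM in RC/RC:Casp1KO, so every one of these stood above every WT and every RC/RC kidney as counted. With the length trend removed, Pkd2 ranged from 349 to 438 CPM in RC/RC:Casp1KO, from 272 to 377 in RC/RC and from 263 to 325 in WT. The RC/RC:Casp1KO kidneys then overlapped RC/RC and stayed above WT. Pkd2 was called in RC/RC:Casp1KO against WT (log2 fold change 0.53, SE 0.09, 44.3% higher, adjusted p = 0.025). Against RC/RC the difference of 0.31 (SE 0.15) was not called (adjusted p = 0.171), nor was RC/RC against WT (0.20, SE 0.15, adjusted p = 0.383). The Pkd1 to Pkd2 ratio of FPKM within a kidney was 0.0693 ± 0.0197 in WT, 0.0644 ± 0.0200 in RC/RC and 0.0651 ± 0.0135 in RC/RC:Casp1KO (SD, n = 4), with ranges that overlapped throughout.

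Pkhd1 showed the largest fold changes of the 10 genes in both comparisons of the double mutant as counted, but not against WT with the length trend removed, where Dnajb11 had -0.57 and Pkhd1 0.55 (log2). WT kidneys had 139 to 175 CPM of Pkhd1. RC105 had 263 CPM, while RC139, RC140 and RC143 had 116, 114 and 167 CPM. The 4 RC/RC:Casp1KO kidneys had 215, 339, 265 and 299 CPM, all above every WT kidney. Pkhd1 was called in RC/RC:Casp1KO against WT (log2 fold change 0.85, SE 0.15, 80.4% higher, adjusted p = 0.0279) and not against RC/RC (0.76, SE 0.27, adjusted p = 0.094). Against RC/RC, Pkhd1 was called without RC105 (1.05, adjusted p = 0.02) and, with all 8 mice, by DESeq2 (0.76, adjusted p = 0.0389), and its value was 0.41 (adjusted p = 0.245) with the length trend removed. The calls of Pkd2 and Pkhd1 against WT each ended in 7 of 8 fits that left out 1 mouse, and held only without RC/RC:Casp1KO mouse 42, with log2 fold changes of 0.48 to 0.56 for Pkd2 and 0.75 to 0.96 for Pkhd1 over the 8 fits.

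The calls in RC/RC:Casp1KO against WT were also lost when the length trend was removed. Pkhd1, whose transcript measures 12935 bases in the table, then had a log2 fold change of 0.55 (adjusted p = 0.080), Pkd2 had 0.39 (adjusted p = 0.089) and Glis2 0.40 (adjusted p = 0.089), so none of the 3 calls held. All 3 kept their direction. Removing the trend also shifted the median of all genes by -0.11 (log2) in this comparison. The parts of gene length and of this shift in the lost calls were not tested apart. In the fit of all 12 mice Pkd2 (0.53, adjusted p = 0.0506) and Pkhd1 (0.85, adjusted p = 0.0897) were not called against WT either.

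Promoters are shown for Pkd2 and Pkhd1, called higher in the double mutant against WT, and for the glucosidase II subunits, which were compared within a kidney. The RefSeq promoter table used here matched 8 of the 10 genes, the others being Bicc1 and Glis2, and the 250 bases before the start are printed 5′ to 3′ in GRCm38.p6. The start is the transcript start of that promoter table, which for Pkd2 and Pkhd1 lies downstream of the outermost RefSeq start of the gene (104453982 for Pkd2, 20618082 for Pkhd1) and a few bases inside the deposited gene, so other starts are not covered. Capitals mark either of 2 motifs searched on both strands, namely the GC box GGGCGG (in 32.9% of 27025 promoters of the same length) and the CCAAT box CCAAT (34.5%). The letters of these motifs do not contain one another.
Pkd2, chr5:104459207-104459456 (+ strand)
Pkd2: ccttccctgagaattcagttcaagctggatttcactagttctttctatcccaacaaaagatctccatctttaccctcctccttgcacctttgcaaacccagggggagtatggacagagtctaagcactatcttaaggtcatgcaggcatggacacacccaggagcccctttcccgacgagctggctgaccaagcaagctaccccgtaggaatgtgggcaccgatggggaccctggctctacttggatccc
Pkhd1, chr1:20618058-20618307 (- strand)
Pkhd1: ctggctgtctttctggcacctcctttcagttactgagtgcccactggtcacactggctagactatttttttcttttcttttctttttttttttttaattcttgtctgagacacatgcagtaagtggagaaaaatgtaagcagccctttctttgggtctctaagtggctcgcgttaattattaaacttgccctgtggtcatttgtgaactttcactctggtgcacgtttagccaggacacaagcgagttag
Ganab, chr19:8897807-8898056 (+ strand)
Ganab: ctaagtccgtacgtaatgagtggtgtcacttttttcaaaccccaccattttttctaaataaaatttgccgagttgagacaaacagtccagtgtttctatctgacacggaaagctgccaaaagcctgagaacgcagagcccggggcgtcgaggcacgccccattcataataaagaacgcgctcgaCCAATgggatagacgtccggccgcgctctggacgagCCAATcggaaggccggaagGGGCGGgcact
Prkcsh, chr9:22002738-22002987 (+ strand)
Prkcsh: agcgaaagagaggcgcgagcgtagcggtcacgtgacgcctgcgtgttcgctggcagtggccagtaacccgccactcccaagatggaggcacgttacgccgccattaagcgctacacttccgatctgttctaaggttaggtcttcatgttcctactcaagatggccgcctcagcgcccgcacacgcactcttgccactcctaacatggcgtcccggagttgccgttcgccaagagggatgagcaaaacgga
The Ganab window held 2 CCAAT boxes and 1 GC box. Neither motif was found in the windows of Pkd2, Pkhd1 and Prkcsh, and the Pkhd1 window had 42% G and C against a median of 52% over all promoters. These matches are descriptions of the letters only.

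**Figure D2:**
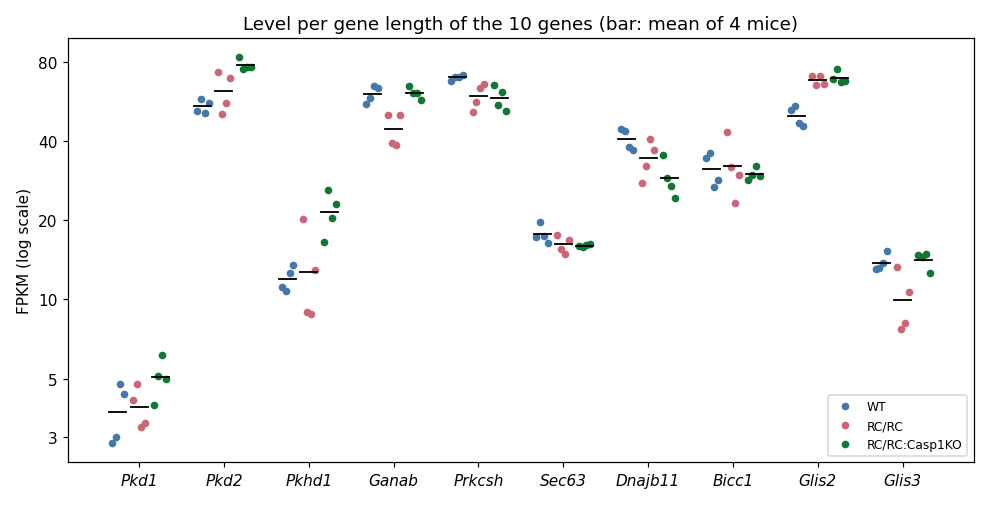
FPKM (vertical axis, log scale) of the 10 genes in each kidney, coloured by group, with short bars at the mean of 4 mice. Pkd1 is the lowest of the 10 in every group, and Glis2, Pkd2, Ganab and Prkcsh the 4 highest.

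Compared per length, the 10 genes kept a wide order of levels. Pkd1 was the lowest in each group, at 3.74 ± 0.973 FPKM in WT, 3.89 ± 0.695 in RC/RC and 5.06 ± 0.892 in RC/RC:Casp1KO (SD, n = 4). The 4 highest in each group were Prkcsh, Ganab, Pkd2 and Glis2. In WT the order from the top was Prkcsh (70.1 FPKM), Ganab, Pkd2, Glis2, Dnajb11, Bicc1, Sec63, Glis3, Pkhd1 and Pkd1, in which Ganab and Pkd2, Pkd2 and Glis2, and Glis3 and Pkhd1 overlapped. In RC/RC Glis2 (68.3 FPKM) came first and Ganab only after Pkd2 and Prkcsh, and 6 of the 9 pairs of neighbours overlapped. Pkd2 (78.1 FPKM) came first in RC/RC:Casp1KO and Pkhd1 stood above Sec63 there, and 4 of the 9 pairs overlapped.

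Neither subunit of glucosidase II was called in any comparison. Ganab had 213, 226, 250.2 and 247 CPM in the WT kidneys. The RC/RC kidneys had 195, 152, 149 and 194 CPM of it, and the RC/RC:Casp1KO kidneys 251, 237, 235 and 222 CPM. All 4 RC/RC kidneys were below all 8 others. Its log2 fold changes were -0.44 (SE 0.14, adjusted p = 0.0639) in RC/RC against WT, 0.44 (SE 0.13, adjusted p = 0.0561) in RC/RC:Casp1KO against RC/RC and 0.02 (SE 0.09, adjusted p = 0.939) in RC/RC:Casp1KO against WT, so none was called. The first was called by DESeq2, in 1 fit of all 12 mice and with the length trend removed, and the second by DESeq2, in the 12-mouse fit, by limma and in the fits without RC105 or RC143.

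Prkcsh was nearly constant among WT kidneys, at 137, 142, 142 and 144 CPM. RC/RC kidneys had 104, 114, 129 and 133 CPM and RC/RC:Casp1KO kidneys 132, 110.4, 124 and 105.3 CPM, so all 8 mutant kidneys were below the 4 WT kidneys. The differences from WT were -0.23 (log2, SE 0.11, adjusted p = 0.201) and -0.26 (SE 0.09, adjusted p = 0.17), and neither was called. The Ganab to Prkcsh ratio of FPKM ranged from 0.814 to 0.919 in WT, from 0.605 to 0.977 in RC/RC and from 0.990 to 1.12 in RC/RC:Casp1KO, and the highest range did not overlap the others.

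Sec63 and Dnajb11, the other ER members, were not called in any comparison. Sec63 had means of 107 ± 8.61, 97.7 ± 7.16 and 96.6 ± 0.911 CPM in WT, RC/RC and RC/RC:Casp1KO (SD, n = 4). Its RC/RC:Casp1KO kidneys lay below all WT kidneys (95.6 to 97.7 against 99.3 to 119 CPM, log2 fold change -0.14, SE 0.08, adjusted p = 0.324). Dnajb11 had means of 104 ± 9.87, 87.3 ± 14.2 and 73.6 ± 12.01 CPM in the same order, and RC/RC overlapped both other groups. Its RC/RC:Casp1KO and WT kidneys did not overlap (61.8 to 90.02 against 94.2 to 113 CPM), with a log2 fold change of -0.49 (SE 0.13, adjusted p = 0.0858) that DESeq2 called.

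The wider ER list of 24 N-glycan trimming, calnexin cycle and translocon genes, all tested, gave 1 call of 24 in RC/RC against WT, beside 12.9% of all genes, 1 of 24 in RC/RC:Casp1KO against RC/RC, beside 11.6%, and 0 in RC/RC:Casp1KO against WT, beside 2.03%. The call in RC/RC against WT was Canx, the gene of the lectin chaperone calnexin, which was lower (416 against 598 CPM, log2 fold change -0.52, SE 0.13, adjusted p = 0.0294). Against RC/RC, the RC/RC:Casp1KO kidneys gave 1 call, Sec61a2, which encodes a translocon pore subunit and was higher (11.4 against 4.56 CPM, 1.31, SE 0.19, adjusted p = 0.00663). In that comparison 16 of the 24 had negative values and 8 positive ones. An unadjusted p under 0.05 was reached by 8 lower and 2 higher genes, beside 2536 lower and 2353 higher of all 15428 genes tested. The list's median was -0.18, beside -0.03 over all genes tested. Sec61a1, Sec61b and Sec61g had -0.26, -0.46 and -0.45, none called. Canx was not called without a filter or in 5 of 8 fits that left out 1 mouse, and Sec61a2 was called in all 8. None was called in RC/RC:Casp1KO against WT, where 21 of the 24 had negative values, 11 of them with an unadjusted p under 0.05, beside 9.99% of all genes tested in that direction. The median of the list there was -0.24, beside 0.01 over all genes tested. Its largest value was that of Sdf2l1, a BiP cofactor, at -1.09 (SE 0.35, adjusted p = 0.138).

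Bicc1 did not differ between groups beyond the spread. Its values were 145 to 196 CPM in WT, 126 to 236 in RC/RC and 155 to 175 in RC/RC:Casp1KO, and its log2 fold changes were 0.03 (SE 0.19), -0.11 (SE 0.17) and -0.06 (SE 0.12), all with adjusted p of 0.693 or more. RC105 was the highest of the group, as for Pkhd1 and Pkd2. Of 6 Bicc1 partners tested, 0, 1 and 0 were called in the 3 comparisons, beside 12.9%, 11.6% and 2.03% of all genes tested. In RC/RC against WT the largest value was that of Cnot1, a subunit of the CCR4-NOT deadenylase (-0.28, adjusted p = 0.218). Nek8, a ciliary kinase, was called higher in RC/RC:Casp1KO against RC/RC (0.40, SE 0.11, adjusted p = 0.0444), but not with library size alone, without a filter, in the fit of 12 mice, by limma or in 7 of 8 fits that left out 1 mouse, and 0 of 6 were called in RC/RC:Casp1KO against WT, where Anks3 had the largest value (0.21, adjusted p = 0.212).

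Glis2 was the member called in both comparisons with WT. WT kidneys had 190.3, 198, 169.7 and 165 CPM, RC/RC kidneys 257, 236, 257 and 239 CPM and RC/RC:Casp1KO kidneys 250.5, 273, 243 and 246 CPM. Both mutant groups stood wholly above WT and overlapped each other. Glis2 rose by a log2 fold change of 0.45 (SE 0.11, 36.7% higher, adjusted p = 0.0278) in RC/RC and 0.49 (SE 0.10, 40.4% higher, adjusted p = 0.0421) in RC/RC:Casp1KO against WT, and the difference between the mutants was 0.02 (SE 0.10, adjusted p = 0.894). Leaving out 1 mouse ended the first call in 6 of 8 fits (it held without WT mouse 3 or RC143) and the second in 7 of 8 (it held without RC/RC:Casp1KO mouse 42), with log2 fold changes of 0.39 to 0.50 in the first and 0.44 to 0.53 in the second. Both calls also ended with no filter on low counts (adjusted p = 0.0546 and 0.0655) and with the length trend removed (0.0544 and 0.0889).

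Glis2 (chromosome 16, 4594713 to 4624924, + strand) shares 8461 bases of its span with Pam16, which lies on the - strand and encodes a subunit of the mitochondrial import motor. Pam16 had 422 to 651 counts per mouse, against 3375 to 7155 for Glis2, and was not called in any comparison (log2 fold change 0.17, adjusted p = 0.402 in RC/RC against WT). The longest shared stretch of their transcripts in GENCODE measured 798 bases. Apart from these 2 pairs, no member shared 300 or more bases at 95% identity with another gene's transcript, and the other genes that overlap members had at most 27 counts in any mouse.

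Glis3 was not called in any comparison, and its lowest values were in RC/RC kidneys. WT kidneys had 97.8, 98.6, 103 and 115 CPM. RC105 had 99.9 CPM and the other RC/RC mice 58.1, 61.3 and 80.2 CPM. RC/RC:Casp1KO kidneys had 110.8, 109, 111 and 94.9 CPM, and overlapped both other groups. The log2 fold changes were -0.47 (SE 0.17, adjusted p = 0.108) in RC/RC against WT and 0.50 (SE 0.17, adjusted p = 0.08) in RC/RC:Casp1KO against RC/RC. Without RC105 both were called (-0.66, adjusted p = 0.0262, and 0.65, adjusted p = 0.0247). With all mice the first was called with the length trend removed (-0.46, adjusted p = 0.045), and the second by DESeq2 (adjusted p = 0.0439) and in the fit of 12 mice (adjusted p = 0.0488). The Glis2 to Glis3 ratio of FPKM was 3.65 ± 0.560 in WT, 7.17 ± 1.67 in RC/RC and 4.95 ± 0.403 in RC/RC:Casp1KO (SD, n = 4), and the ranges of both mutant groups lay above that of WT.

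**Figure D3:**
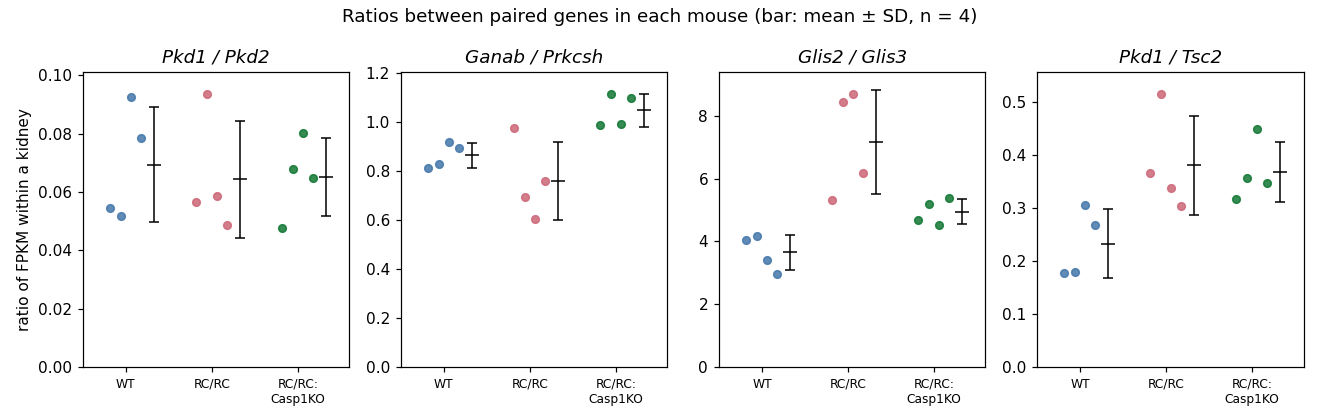
Ratios of FPKM (vertical axes, from 0) between 2 genes of the same kidney, by group, with points for mice and bars for the mean ± SD of 4 mice. The Glis2 to Glis3 ratio is above WT in all 8 mutant kidneys, and the Pkd1 to Pkd2 ratio overlaps between all groups.

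**Figure D4:**
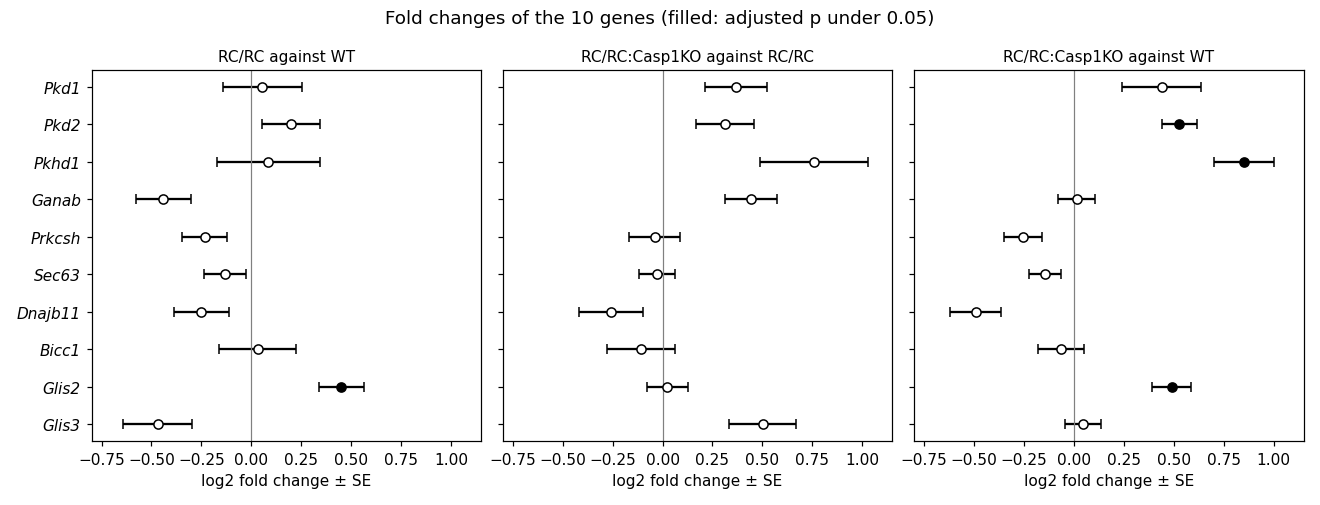
Log2 fold changes (horizontal axis) with SE bars of the 10 genes in the 3 comparisons, filled where the adjusted p was under 0.05. Glis2 is filled in both comparisons with WT, and Pkd2 and Pkhd1 in RC/RC:Casp1KO against WT.

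**Figure D5:**
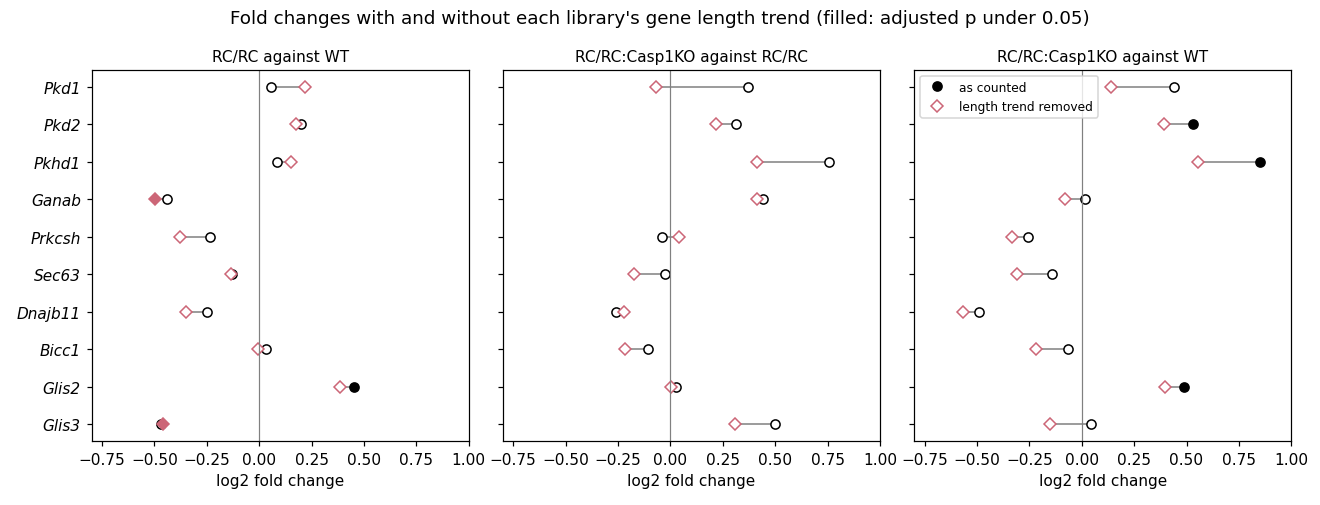
Log2 fold changes (horizontal axis) of the 10 genes as counted (circles) and with the gene length trend of each library removed (diamonds), filled where the adjusted p was under 0.05. Pkd1 and Pkhd1, the longest transcripts, shift most in RC/RC:Casp1KO against RC/RC, and none of the 10 is filled in RC/RC:Casp1KO against WT after removal.

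Other genes of cystic disease were read by list. Of 23 recessive cystic kidney and nephronophthisis genes tested, Dcdc2a, a microtubule-associated ciliary gene, was called higher in RC/RC against WT (31.7 against 12.5 CPM, log2 fold change 1.34, SE 0.19, adjusted p = 0.00267), 1 of 23 beside 12.9% of all genes tested. Of the same 23, 5 were called in RC/RC:Casp1KO against RC/RC, all higher, beside 7.23% of all genes tested called higher there, among them Mapkbp1 (1.04, SE 0.14, adjusted p = 0.00464), Ift172 (0.55, SE 0.12), Dzip1l (0.52, SE 0.13) and Cep164 (0.43, SE 0.11). Mapkbp1 and, against WT, Dcdc2a stayed called in all 8 fits without 1 mouse, Ift172 in 4 of 8, and Dzip1l and Cep164 in 1 of 8 each. Dzip1l and Cep164 were not called with library size alone, without a filter or by limma, Ift172 not with library size alone or by limma, and Cep164 not with the length trend removed (0.31, adjusted p = 0.0532). No gene of the 23 was called in RC/RC:Casp1KO against WT, 4 had an unadjusted p under 0.05 and were all in the higher direction, beside 11.8% of all genes tested higher and 21.8% in either direction, and Dcdc2a showed the largest value (0.96, adjusted p = 0.167).

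Among 16 genes of cystic syndromes and transcriptional regulators tested, 4 were called in RC/RC against WT, beside 12.9% of all genes tested. Gli1 (2.82 against 1.13 CPM, log2 fold change 1.32, SE 0.37, adjusted p = 0.0475) and Gli3 (1.29, SE 0.30, adjusted p = 0.0231), transcription factors of the Hedgehog pathway, were higher, and Tsc2 was among those lower, as given above. Against RC/RC, 5 of 16 were called in RC/RC:Casp1KO, beside 11.6% of all genes tested, where Tsc1 (0.66, SE 0.16), Sufu (0.58, SE 0.16), a Hedgehog inhibitor, and Tsc2 were among those higher and Wwtr1 (-0.36, SE 0.10), the gene of TAZ, was lower. Gli1 and Gli3 were not called by limma, Wwtr1 not with library size alone, without a filter or by limma, Tsc1 not by limma and Sufu not with the length trend removed. Of 8 fits that left out 1 mouse, Gli3 was called in 4, Gli1, Tsc1 and Sufu in 2 each and Wwtr1 in 1. None of the 16 was called in RC/RC:Casp1KO against WT, beside 2.03% of all genes tested, and Gli1 had the largest value (1.17, adjusted p = 0.0865).

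The remaining lists gave 1 call, in RC/RC:Casp1KO against RC/RC, where 11.6% of all genes tested were called. Of 8 other dominant polycystic genes tested 0 were called in RC/RC against WT (largest value Alg8, -0.25, adjusted p = 0.383) and in RC/RC:Casp1KO against WT (Lrp5, -0.29, adjusted p = 0.186), and Nek8 was called in RC/RC:Casp1KO against RC/RC as given above. None of 10 genes of polycystin-1 processing and trafficking was called, with the largest values at Gpr161 (0.72 and 0.69 against WT, in RC/RC and RC/RC:Casp1KO) and Arl3 (-0.47 in RC/RC:Casp1KO against RC/RC, adjusted p = 0.0543). Of 7 relatives of the polycystins and fibrocystin, 2 or 3 passed the filter on low counts and none was called. Pkd1l3 had the largest value in RC/RC against WT (-0.66, adjusted p = 0.286) and Pkdrej in both comparisons of RC/RC:Casp1KO (1.28, adjusted p = 0.132, against RC/RC and 0.51, adjusted p = 0.522, against WT).

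Kidney tubule markers were abundant in all 12 libraries, and the summed RNA of several marker lists differed between groups. The 6 proximal tubule markers, led by Slc34a1, summed to 7937, 8812, 11504 and 12717 CPM in the WT kidneys, to 5216, 3427, 5846 and 8755 CPM in the RC/RC kidneys and to 11756, 9801, 10228 and 9502 CPM in the RC/RC:Casp1KO kidneys, and 2 of 6 were called lower in RC/RC against WT, beside 3.18% of all genes tested. The 6 fibroblast and pericyte markers, led by Col3a1, summed to 204 to 275 CPM in WT, 676 to 1631 in RC/RC and 277 to 569 in RC/RC:Casp1KO, with 6 of 6 called higher in RC/RC against WT, beside 9.76% of all genes tested. The 8 injured or cyst-lining tubule markers, led by Spp1, summed to 761 to 2390 CPM in WT, 2516 to 6047 in RC/RC and 894 to 2392 in RC/RC:Casp1KO, with 5 of 8 called higher in RC/RC against WT, beside the same 9.76%. RC105 was the highest in its group for Pkd2, Pkhd1, Ganab, Sec63, Bicc1 and Glis3 and the lowest for Prkcsh and Dnajb11, and it also had the highest sum of injured tubule markers and the highest length trend of its group (0.08, log2).

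In RC/RC against WT, calls differed between the other marker lists. All 4 T cell and all 4 B and plasma cell markers were called higher, as were 4 of 5 macrophage markers. Called lower were 2 of 3 distal convoluted tubule and 1 of 4 podocyte markers. Among all genes tested 9.76% were called higher and 3.18% lower. No tested marker of thick ascending limb, principal cells, intercalated cells, endothelium, urothelium or adrenal cortex was called, and no adipocyte marker was tested. The sums themselves were not tested. Distal convoluted tubule markers (3, led by Slc12a3) averaged 1018, 258 and 681 CPM in WT, RC/RC and RC/RC:Casp1KO, principal cell markers (5, led by Aqp2) 638, 1130 and 854 CPM, macrophage markers (5, led by Csf1r) 125, 273 and 196 CPM, and B and plasma cell markers (4, led by Jchain) 7.47, 175 and 78.3 CPM. Thick ascending limb markers (3, led by Umod) averaged 5319, 3734 and 4528 CPM, intercalated cell markers (5, led by Slc26a4) 386, 238 and 269 CPM, podocyte markers (4, led by Podxl) 521, 449 and 436 CPM, and endothelial markers (4, led by Kdr) 309.8, 375 and 299 CPM. T cell markers (4, led by Cd3e) averaged 2.54, 9.77 and 5.41 CPM, urothelial markers (4, led by Upk1a) 10.8, 13.9 and 12.5 CPM, and adrenal cortex markers (3, led by Star) 3.28, 2.86 and 4.62 CPM. The urothelial sum was 28.5 CPM in WT mouse 4 and 2.03 to 6.53 CPM in the other WT mice. Adipocyte markers (3, led by Cidec) reached 311 CPM in RC139 and 36.9 CPM in RC143, and at most 16.3 CPM in any other mouse. No marker was at 0 in all mice, and the part of cell makeup in the levels of the 10 genes was not tested.

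Over the 12 kidneys and among 15875 genes, the genes most like Pkd1 in log2 CPM were Stard9 (Pearson r = 0.963), Tnip2 (0.951) and Cd27 (0.946). Those most like Pkhd1 were BC067074 (0.969), Asxl1 (0.949) and Skp2 (0.945), and those most like Bicc1 were Ext2 (0.911), Erap1 (0.904) and Usp25 (0.863). These are descriptions over kidneys that share their groups and length trends, and Stard9 has a transcript of 15102 bases. Among the members themselves, Ganab and Glis3 followed each other most closely within groups (r = 0.884 over 12 kidneys after the group means were removed).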

How the data were processed

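The authors made poly(A) RNA libraries from kidney RNA of 12 mice and deposited 1 table that holds raw read counts per gene, gene coordinates and gene lengths (other, in bp) beside columns of their own results. The submitters' processing notes name CASAVA 1.8, STAR and mm10, and the counting tool, annotation and strand setting are not given in the sources used here. The authors' FPKM, normalized means, fold changes and p-values in the deposited table were not used. Count columns without a group numbered 0. The mice of a group differed by more than sampling noise and were taken as 4 independent replicates. The p-values rest on the spread within groups. That spread includes the difference between the close pairs given above, for which the fits had no term.

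Each of the 3 comparisons was fitted on its 8 mice in R 4.3.3. The quasi-likelihood test of edgeR 4.0.16 was used after filterByExpr and TMM scaling, with Benjamini-Hochberg adjustment over all genes tested. FPKM was computed as TMM-scaled CPM per kilobase of deposited length. Alternatives used DESeq2 1.42.0, limma 3.58.1 on log2(FPKM + 1), RLE factors, library size alone, other filters, 1 fit of all 12 mice, removal of each library's gene length trend (loess, span 0.5) and each mouse left out. The scripts were tested on simulated data. The 10 genes, the pathway and the marker lists were chosen with earlier results of these data known. Named from the lists were the called genes with the 3 largest increases and decreases, or the largest change where none was called, and of marker lists the most abundant gene; other called genes were named because they were few. Some called genes of the lists enter the counts and are not reported here by name. Likeness was the Pearson correlation of log2 CPM (prior count 1). Promoters and motifs were read from RefSeq GRCm38.p6. Depths allowed 3 counts to be 0.115 to 0.166 CPM, and this covers counting error only.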

Additional observations from a re-analysis of the deposited data

Results flagged for a closer look

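A sample far from the others was looked for in each group of 4 mice by Dixon's test at the 95% level, over 33 groups (the 10 genes and Casp1, in 3 groups each), where chance gives about 1 in 20. There were 2. Glis3 in 1 RC/RC:Casp1KO mouse (neither 42, 60 nor 70) was 94.9 CPM, below 109 to 111 CPM in the other 3 mice of the group. Casp1 in WT mouse 2 was 2.05 CPM, above 1.29 to 1.41 CPM in the other 3 WT mice.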

How the results depend on the processing

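No paired analysis was possible because the columns carry mouse numbers and not the replicate numbers of the labels. Over all genes, the 1971, 1797 and 311 calls of RC/RC against WT, RC/RC:Casp1KO against RC/RC and RC/RC:Casp1KO against WT became 3027, 3172 and 1387 with DESeq2. The second fell to 993 with library size alone and 1052 with limma, and the last to 167 with at least 10 counts in every mouse. Leaving out 1 mouse gave 1162 to 2440, 438 to 2789 and 108 to 547 calls. Of the 10 genes, the 1, 0 and 3 calls ranged from 0 to 1, 0 to 3 and 0 to 4 when 1 mouse was left out. In RC/RC against WT they were 2 with DESeq2, in the fit of 12 mice and with the length trend removed (Ganab and Glis3, not Glis2), and 0 with no filter. Against RC/RC, the RC/RC:Casp1KO calls were 3 with DESeq2, 2 in the fit of 12 mice and 1 with limma, and against WT 1 in the fit of 12 mice (Glis2) and 0 with the length trend removed. The cause of these shifts was not tested.

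No called value of the 10 genes changed direction, and signs turned only in values that were not called. With the length trend removed these were Bicc1 in RC/RC against WT (-0.00666), Pkd1 (-0.0691) and Prkcsh (0.0393) in RC/RC:Casp1KO against RC/RC, and Ganab (-0.0781) and Glis3 (-0.152) in RC/RC:Casp1KO against WT. With library size alone they were Prkcsh (0.0162) and Sec63 (0.0209) in RC/RC:Casp1KO against RC/RC and Bicc1 (0.0696) in RC/RC:Casp1KO against WT, with limma the same 3 at 0.0146, 0.0240 and 0.0720, and with DESeq2 Ganab (-0.00860) in RC/RC:Casp1KO against WT. Leaving out 1 mouse gave, in RC/RC against WT, -0.0782 to 0.161 for Pkd1, -0.251 to 0.227 for Pkhd1 and -0.165 to 0.161 for Bicc1. The same ranges in RC/RC:Casp1KO against RC/RC were -0.115 to 0.0246 for Prkcsh, -0.0666 to 0.000351 for Sec63, -0.237 to 0.0522 for Bicc1 and -0.0146 to 0.0495 for Glis2. Against WT they were -0.0284 to 0.0437 for Ganab and -0.158 to 0.00768 for Bicc1. The Pkd1 to Pkd2 ratio moved by less than its spread in fits without 1 mouse, which were added after the data were seen, as were the alternatives for the called genes of the lists. The median of all genes shifted by 0.13 with library size alone and by -0.11 with the length trend removed in RC/RC:Casp1KO against WT, and by -0.10 with the length trend removed in RC/RC against WT. Calls gained or lost with the length trend removed in these comparisons include that shift.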
